A study of Mus musculus with 6 samples.

Results

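S100 proteins are small EF-hand calcium-binding proteins, and 9 of their mouse genes were followed here in microglia that had been cultured with neutrophils from injured spinal cord. The 9 genes, S100a1, S100a3, S100a4, S100a6, S100a8, S100a9, S100a10, S100a11 and S100a13, were chosen by gene name with the measured FPKM values and the KO to WT difference of these same libraries in view. They are 9 of 18 S100 genes, a pseudogene (S100a11-ps) included, and of 55335 gene identifiers in the expression table. Because the difference between the arms had a part in choosing them, it is given for the 9 genes as a description without a test. Tests are given only for other genes. The lists of other genes were also drawn up with earlier results of these data known, and most single genes are named by smallest p. Their counts and adjusted p-values therefore share part of this limit.

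Primary microglia came from the brains of newborn wild-type C57BL/6 mice and were shaken off mixed glial cultures on culture day 14. They were put in direct contact for 24 h with neutrophils that magnetic sorting had taken from injured spinal cord (SCI) at 3 days after injury, from either Cd177 WT or Cd177 KO mice. The microglia were then recovered by flow sorting as Ly6G-negative cells and their RNA was sequenced in bulk, with 3 libraries for each arm. The arms are called WT and KO after the genotype of the neutrophils, and the microglia were wild-type in both. Nothing in the labels tells if libraries of the same arm are separate cultures or animals, so p-values measure the spread between these libraries, which may be technical.

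S100 proteins work mostly as dimers that open a binding surface when calcium is taken up and then attach to partners such as annexins, myosin heavy chain and p53. S100A8 and S100A9 pair as calprotectin, a major cytosolic protein of neutrophils, and several family members act outside cells on receptors such as RAGE and TLR4. In the nervous system S100b is known as an astrocyte product, and S100a4, also called fibroblast-specific protein, is also made by macrophages.

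Markers of macrophage-lineage cells were present in part. Cd68, a lysosomal protein of macrophages, was at 363 to 377 FPKM in WT and 481 to 505 FPKM in KO. Adgre1, which encodes F4/80, was at 99.7 to 104 FPKM in WT and 37.6 to 40.4 FPKM in KO, and Cx3cr1 at 2.41 to 2.98 and 0.956 to 1.43 FPKM. Csf1r, the receptor for the main microglial growth factor, was at 15.3 to 15.9 FPKM in WT and 18.7 to 20.3 FPKM in KO. Tmem119, a marker of microglia in the intact brain, did not exceed 0.793 FPKM, P2ry12 did not exceed 0.148 FPKM, and C1qa, Fcrls and Sall1 were at 0 in all 6 libraries. C1qb and C1qc did not exceed 0.222 FPKM and Aif1 did not exceed 0.282 FPKM. Of 37 neutrophil transcripts, 10 were taken as defining for their use as markers of that cell. Of these 10, Ly6g, Mpo, Elane, Ltf and Retnlg were at 0 in every library, and Camp, Ngp, Mmp8, Cxcr2 and Csf3r did not exceed 0.744 FPKM. Among the rest of that list, Lcn2, which activated macrophages also make, was at 109 to 113 FPKM in WT and 0.048 to 0.314 FPKM in KO, and Mmp9 at 7.08 to 7.21 FPKM and 0.77 to 1.13 FPKM. The astrocyte and oligodendrocyte markers Gfap, Aqp4, Aldh1l1, Gja1, Mbp, Olig2 and Sox10 reached 0.205 FPKM at most, and the fibroblast markers Col1a1, Col1a2, Col3a1, Dcn, Lum and Pdgfrb 0.032 FPKM. Cd177 itself, at 0.477, 0.113 and 0.151 FPKM in WT and 0.109, 0.022 and 0.084 FPKM in KO, was too low for a check of the neutrophil genotype. The spacing of low values put the depth at about 15570000 to 19230000 fragments per library. Mitochondrial genes took 11.1% to 11.3% of summed FPKM in WT and 14.3% to 14.6% in KO.

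All 9 genes lie on chromosome 3 (GRCm38, GENCODE M21). The promoter windows of the genes that carry most of the S100 signal are shown first, each from 250 bases before to 50 bases after the RefSeq start, so that the letters near the start sites can be read beside the expression values. RefSeq promoter windows (GRCm38.p6) were found for 8 of the 9 genes, all but S100a10. Capitals mark matches, on either strand, to TATAAA (the TATA box), CCAAT (the CCAAT box), GGGCGG (the GC box), TGANTCA (the AP-1 core, a palindrome) and GAGGAA (a PU.1 core), which do not overlap each other in these windows.
S100a4, chr3:90603520-90603819, plus strand: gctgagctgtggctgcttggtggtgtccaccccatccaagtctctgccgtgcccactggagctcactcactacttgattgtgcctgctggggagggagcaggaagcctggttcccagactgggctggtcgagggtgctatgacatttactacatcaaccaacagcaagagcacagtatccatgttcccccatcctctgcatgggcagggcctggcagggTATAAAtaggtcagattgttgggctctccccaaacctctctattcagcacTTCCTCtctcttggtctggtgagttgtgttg
S100a11, chr3:93520246-93520545, plus strand: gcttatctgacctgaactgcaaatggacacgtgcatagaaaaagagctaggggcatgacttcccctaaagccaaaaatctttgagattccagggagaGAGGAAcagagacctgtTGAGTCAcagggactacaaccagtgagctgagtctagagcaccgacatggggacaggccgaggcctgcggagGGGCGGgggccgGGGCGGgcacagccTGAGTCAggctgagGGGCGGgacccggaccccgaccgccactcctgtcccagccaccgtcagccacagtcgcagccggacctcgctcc

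The S100a4 window held a TATA box at -31, counted in bases from the start site to the first base of the match, and the reverse complement of GAGGAA at 19. The S100a11 window held no TATA box but 3 GC boxes at -64, -52 and -24, 2 AP-1 cores at -136 and -38, and a PU.1 core at -153. Of 32851 mouse windows of this length, 13.6% held a TATA box, 37.4% a CCAAT box, 35.7% a GC box, 7.8% an AP-1 core and 28.3% a PU.1 core. These matches describe the letters and do not show that a factor was bound.

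S100a1 and S100a13 lie head to head, S100a1 on the minus strand and S100a13 on the plus strand, with RefSeq starts 105 bases apart. Their windows share 204 bases, shown on the plus strand because both genes are read away from it. Capitals run from the S100a1 start to the S100a13 start.
S100a1 and S100a13 shared stretch, chr3:90514281-90514484: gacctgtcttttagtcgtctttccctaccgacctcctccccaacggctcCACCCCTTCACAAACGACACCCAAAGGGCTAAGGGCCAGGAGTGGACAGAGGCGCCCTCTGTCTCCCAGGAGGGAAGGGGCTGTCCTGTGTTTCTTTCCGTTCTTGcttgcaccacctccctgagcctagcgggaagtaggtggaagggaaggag
None of the 5 motifs was found in either full window of this pair.

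Of the 9 genes, 6 were expressed at a mean of at least 1 FPKM, and each of these was higher in all 3 KO libraries than in all 3 WT libraries. Their median difference was 0.77 on the log2(FPKM + 1) scale, beside 0.02 for all 11395 genes at or above 1 FPKM. Separation of the arms with KO higher was found for 31.3% of tested genes. Nothing is read from this count for the 6 genes, because the same contrast was used to choose them. In bulk RNA, fewer cells of a type and less RNA per cell cannot be told apart.

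**Figure D1:**
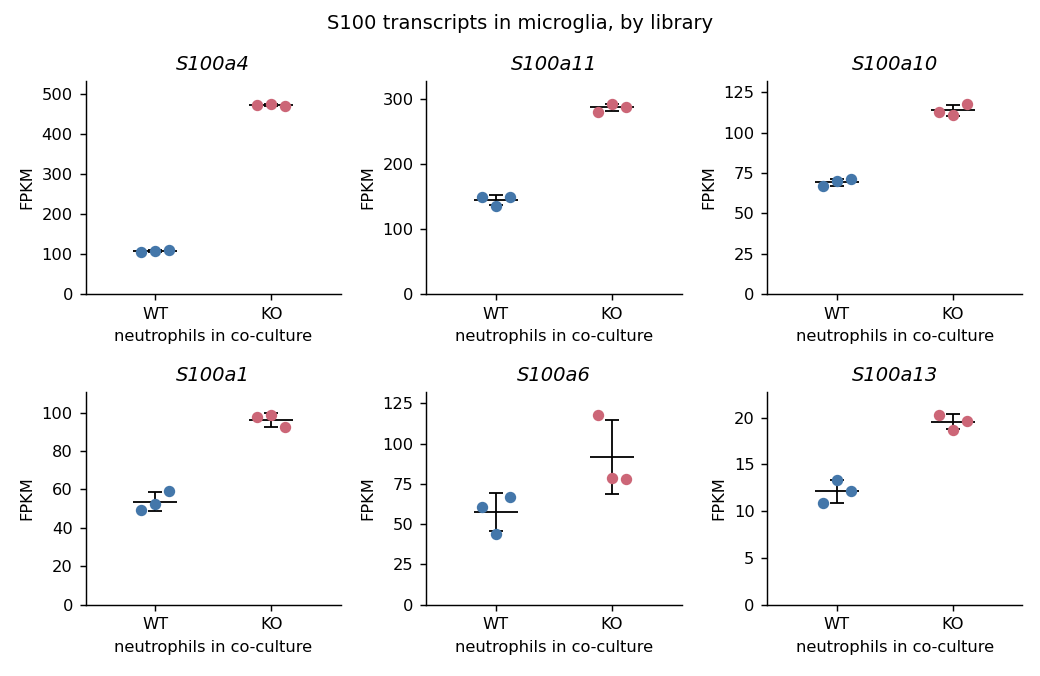
FPKM of the 6 expressed S100 genes in each library (points) for microglia with WT and with KO neutrophils, with the mean and SD of 3 libraries as bar and whiskers, on linear axes that start at 0. The arms do not overlap for any of the 6 genes, and S100a6 has the widest scatter within an arm.

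S100a4, which binds non-muscle myosin and is tied to cell motility, differed most between the arms. Its FPKM was 104.57, 107.87 and 108.72 in WT and 472.74, 474.43 and 468.94 in KO. The KO libraries lay within 6 FPKM of each other and far above every WT library. The mean was 107 ± 2.19 FPKM (SD, n = 3) in WT and 472 ± 2.81 FPKM (SD, n = 3) in KO, a ratio of 4.41 (SE 0.05) and a log2 difference of 2.13 (SE 0.02). Only 3 of the 11395 tested genes had a larger rise on this scale. Among all genes of the table ordered by FPKM, S100a4 stood at place 373 in WT and place 66 in KO. The S100a4 gene spans chr3:90603771-90606045 on the plus strand and has exons that overlap Gm42674 on the same strand, which was at 0 in all 6 libraries.

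S100a11, a partner of annexin A1 that is known for a role in membrane repair and keratinocyte growth control, was the most abundant S100 transcript in WT. Its FPKM was 148.26, 135.33 and 149.68 in WT and 280.1, 291.89 and 287.4 in KO. The lowest KO library was well above the highest WT library. The mean went from 144 ± 7.91 to 286 ± 5.95 FPKM (SD, n = 3 each), a ratio of 1.98 (SE 0.07). The gene spans chr3:93520488-93526287 on the plus strand, with 1 annotated transcript.

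S100a10, the light chain that pairs with annexin A2 and does not need calcium to do so, was at 66.98, 70.08 and 71.02 FPKM in WT and at 112.7, 110.74 and 117.84 FPKM in KO. The arms were again apart, with a ratio of 1.64 (SE 0.04). The gene spans chr3:93555080-93564643 on the plus strand.

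S100a1, best known from heart and skeletal muscle where it acts on calcium release channels, was at 49.49, 52.45 and 59.22 FPKM in WT and 97.68, 98.98 and 92.25 FPKM in KO. Its ratio was 1.79 (SE 0.10). S100a13, which takes part in the unconventional release of FGF1 and IL-1 alpha, was the lowest of the 6 genes, at 10.92, 13.35 and 12.12 FPKM in WT and 20.32, 18.72 and 19.68 FPKM in KO. Its ratio was 1.61 (SE 0.10). Both genes of this head-to-head pair were thus higher in KO, and S100a1 stayed above S100a13 in every library, at 4.45 ± 0.49 times its FPKM in WT and 4.93 ± 0.32 times in KO (SD, n = 3 each). S100a1 spans chr3:90511034-90514392 and S100a13 chr3:90514435-90524581.

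S100a6, or calcyclin, which binds the calcyclin-binding protein Cacybp, varied most within an arm. Its FPKM was 60.9, 44.19 and 67.11 in WT and 117.96, 78.45 and 77.86 in KO. KO replicate 1 stood apart above the other KO libraries, and WT replicate 2 was the lowest of all. The coefficient of variation was 20.7% in WT and 25.1% in KO, where the median over 4789 genes averaging 10 FPKM or more was 3.37% in WT and 3.23% in KO. S100a6 thus scattered more than 97.1% of those genes in WT and 98.2% in KO. Its log2 difference was 0.66 (SE 0.21), and was 0.46 without KO replicate 1 and 0.48 without WT replicate 2. The gene spans chr3:90612882-90624181 on the plus strand and has 4 annotated transcripts.

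**Figure D2:**
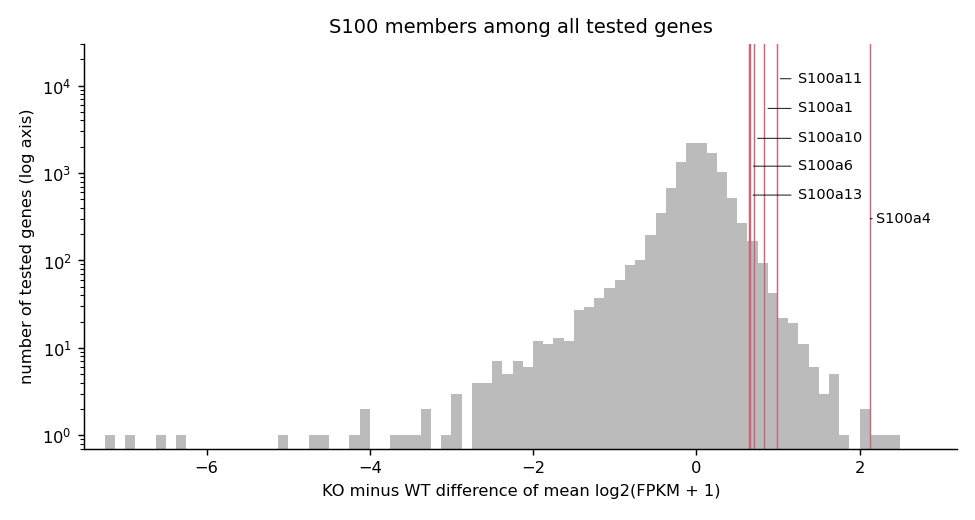
Histogram of the KO minus WT difference in log2(FPKM + 1) over the 11395 tested genes, with the 6 expressed S100 genes marked. All 6 lie right of the median of 0.02, from 0.65 for S100a13 to 2.13 for S100a4. They were chosen with this difference in view, so their place is a description.

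The other 5 expressed genes differed less than S100a4. By the size of the rise on the log2 scale, S100a11 ranked 79, S100a1 134, S100a10 253, S100a6 323 and S100a13 332 of 11395 tested genes. A KO to WT ratio at least as large as the lowest among the 6 genes, the 1.59 of S100a6, was found in 545 tested genes, or 4.78%. Because the same difference was in view when the 6 genes were chosen, these ranks and this share describe them and are not a test. A rise above 1 on the log2 scale was found in 73 genes, of which S100a4 was the only S100 gene. S100a11 was just short of it at 0.984, and reached 1.004 without WT replicate 1 and 1.011 without WT replicate 3.

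The 3 remaining genes were at or near the limit of detection. S100a9 was at 0 in all 6 libraries, where 3 fragments would have given at most 0.376 FPKM in WT and 0.368 FPKM in KO. S100a8, its partner in calprotectin, was at 0.31, 0.456 and 0.449 FPKM in WT and at 0.181, 0 and 0.15 FPKM in KO. All KO values were below all WT values, but they correspond to about 2.6 to 3.5 fragments per WT library and at most 1.4 per KO library, so no fold is given. S100a3, a gene known from hair cuticle, lay between 0.022 and 0.187 FPKM, with overlapping arms, and its exons overlap those of Gm23464 and Gm42674. Counted on its shortest annotated transcript of 509 bases, it had at most 1.5 fragments in any library. Its annotated transcripts reach 3143 bases, and a longer one would mean more fragments. The neutrophil-type S100 genes were thus close to 0 in both arms, where each of the 6 expressed S100 genes was above 10 FPKM in every library.

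The other 9 S100 genes in the table did not pass 0.228 FPKM in any library, and 5 of them, S100a11-ps included, were at 0 throughout, so none was tested. These include S100b, the S100 gene known from astrocytes, and S100a16. Of the 18, 6 reached 1 FPKM in the mean.

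The added FPKM of the 9 genes was 441.5, 423.8 and 468.4 in WT and 1101.9, 1073.3 and 1064.2 in KO. The KO sum was 2.43 times the WT sum, and the makeup of the sum also differed between the arms. S100a4 made up 23.7%, 25.5% and 23.2% of it in WT and 42.9%, 44.2% and 44.1% in KO. The share of each of the other 5 expressed genes was lower in KO in the mean although its FPKM was higher. S100a11 took 31.9% to 33.6% of the sum in WT and 25.4% to 27.2% in KO.

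**Figure D3:**
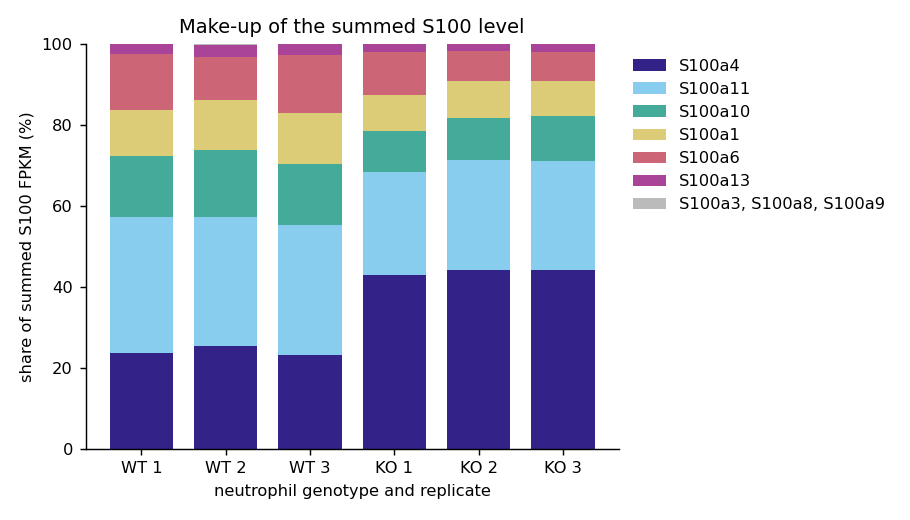
Share of each S100 gene in the summed FPKM of the 9 genes, in percent, as stacked bars for the 3 WT and 3 KO libraries. S100a4 takes 23.2% to 25.5% of the sum in WT and 42.9% to 44.2% in KO.

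The order of the levels therefore changed at the top. In WT it was S100a11, S100a4, S100a10, S100a6, S100a1 and S100a13, and in KO it was S100a4, S100a11, S100a10, S100a1, S100a6 and S100a13. The ratio of S100a4 to S100a11 in FPKM was 0.74 ± 0.05 in WT and 1.65 ± 0.03 in KO (SD, n = 3 each). The ranges of S100a10 and S100a6 overlapped in WT, although S100a10 was the higher in 3 of 3 libraries, and they overlapped in KO too, where S100a6 was above S100a10 in replicate 1. S100a6 and S100a1 overlapped in both arms and stood in the order given in 2 of 3 libraries of each, so their order is not clear. FPKM is a value per transcript length, and S100 transcripts are short, so levels between these genes depend on the lengths that were used.

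The genes with a profile over the 6 libraries closest to that of S100a4 were found by the root mean square distance between centred log2(FPKM + 1) values, among tested genes at a mean of at least 5 FPKM. Closest was Atp6v0d2, a subunit of the vacuolar proton pump, at a distance of 0.05, with 8.80 to 8.92 FPKM in WT and 39.31 to 42.47 FPKM in KO. Next were Serpinb1a, an inhibitor of neutrophil serine proteases, at 0.06, Ighm at 0.25, Arrb1 at 0.31 and Cd300lb at 0.31. With 6 libraries in 2 arms, this likeness is mostly the size of the difference between the arms.

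Genes that are no members were tested with limma across all 11395 genes, and were called at an adjusted p under 0.05. Of all tested genes 43.3% were called, 24.5% as higher and 18.8% as lower in KO. Of these calls 56.6% were higher and 43.4% lower, while on a TPM scale 45.1% were higher and 54.9% lower.

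Annexins are the best known partners of S100a10, S100a11 and S100a6 in the cytoplasm. Of 12 annexin genes, 9 were tested, and 4 rose, 1 fell and 4 did not pass the test, with a median log2 difference of 0.15. The 5 called of 9 stand beside 43.3% called of all tested genes. Anxa1, the partner of S100a11, rose from 19.26, 19.89 and 19.28 FPKM in WT to 31.85, 29.73 and 31.79 FPKM in KO (log2 difference 0.65, SE 0.04, limma adjusted p = 3.47e-05). Anxa3 rose by 0.41 (SE 0.05, limma adjusted p = 0.000823) and Anxa11, which can bind S100a6, by 0.30 (SE 0.04, limma adjusted p = 0.00168). Anxa5, the most abundant of these 4 genes, fell from 214.85 to 218.56 FPKM in WT to 179.95 to 191.58 FPKM in KO (log2 difference -0.22, SE 0.03, limma adjusted p = 0.00108).

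Anxa2, the partner of S100a10, was singled out after its values were seen. It was at 73.5, 78.04 and 78.6 FPKM in WT and at 79.34, 77.04 and 77.86 FPKM in KO, with overlapping arms (log2 difference 0.03, SE 0.03, limma adjusted p = 0.546). On a TPM scale the difference was -0.02, and without WT replicate 1 it was -0.004. The FPKM ratio of S100a10 to Anxa2 was therefore 0.911, 0.898 and 0.904 in WT and 1.421, 1.437 and 1.513 in KO. The S100a11 to Anxa1 ratio was 7.42 ± 0.54 in WT and 9.22 ± 0.54 in KO (SD, n = 3 each).

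Receptors through which S100 proteins act from outside the cell were 10 genes, of which 7 were tested, and 1 rose and 2 fell, with a median log2 difference of -0.22. The 3 called of 7 were near the 43.3% called of all tested genes. Without KO replicate 3 the counts were 3 higher and 2 lower, the added genes being Nptn and Ly96, the partner of TLR4, which was at 5.72, 6.449 and 6.592 FPKM in WT and 8.554, 7.607 and 5.75 FPKM in KO (log2 difference 0.32 and limma adjusted p = 0.0292 without that library, 0.18 and limma adjusted p = 0.305 with it). The Ly96 difference was 0.07 without KO replicate 1 (limma adjusted p = 0.667). Cd14, the co-receptor of TLR4, fell from 468.15, 481.82 and 472.36 FPKM in WT to 135, 135.74 and 138.17 FPKM in KO (log2 difference -1.79, SE 0.02, limma adjusted p = 4.09e-08). Cd36, a scavenger receptor that takes up fatty acids and binds S100A8 with S100A9, rose from 11.41, 9.941 and 10.51 FPKM to 17.2, 14.78 and 17.07 FPKM (log2 difference 0.58, SE 0.07, limma adjusted p = 0.00127). Alcam, an adhesion molecule that has been described as an S100B receptor, fell by 0.22 on the log2 scale (SE 0.05, limma adjusted p = 0.0142). With the replicate number as a block, 1 rose and 3 fell, as Bsg (basigin), at 92.5, 114.94 and 118.44 FPKM in WT and 77.36, 99.8 and 103.77 FPKM in KO, was called (log2 difference -0.22, limma adjusted p = 0.00593 with the block and 0.254 without it). Without the block, the Bsg difference was -0.09 when KO replicate 1 was left out (limma adjusted p = 0.59) and -0.33 when WT replicate 1 was left out (limma adjusted p = 0.106).

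Nptn, a neuroplastin receptor for S100A8, was at 8.633, 8.776 and 14.22 FPKM in WT and at 20.27, 20.82 and 12.23 FPKM in KO. Replicate 3 of each arm lay toward the other arm, and the difference of 0.70 (SE 0.26) was not called (limma adjusted p = 0.0686). It was called at 0.92 without WT replicate 3 (limma adjusted p = 0.0309) and at 0.93 without KO replicate 3 (limma adjusted p = 0.0228). Tlr4, singled out after its values were seen, was at 11.84, 3.178 and 11.95 FPKM in WT and 3.139, 3.087 and 3.988 FPKM in KO. WT replicate 2 lay among the KO libraries, and the difference of -1.01 (SE 0.44, limma adjusted p = 0.11) was called at -1.56 without that library (limma adjusted p = 0.000327). Ager, which encodes RAGE, was below 1 FPKM in the mean and was not tested.

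Partners that S100 proteins meet inside the cell were 34 genes, of which 19 were tested, and 5 rose, 10 fell and 4 did not pass, with a median log2 difference of -0.11. These counts stand beside 24.5% higher and 18.8% lower among all tested genes. On a TPM scale 3 rose and 10 fell, and 3 rose without WT replicate 1 or without WT replicate 3. Il1a, whose product leaves cells together with S100A13, fell from 57.09, 54.87 and 59.42 FPKM in WT to 2.593, 2.331 and 2.418 FPKM in KO (log2 difference -4.08, SE 0.05, limma adjusted p = 4.98e-08). S100a13 was higher in the same KO libraries. Cybb, the catalytic subunit of the phagocyte NADPH oxidase that S100A8 with S100A9 can activate, was at 68.81 to 71.2 FPKM in WT and 19.29 to 20.59 FPKM in KO (log2 difference -1.77, SE 0.03, limma adjusted p = 3.51e-07). Rac2, a small GTPase of the same enzyme, fell by 1.01 on the log2 scale (SE 0.03, limma adjusted p = 1.11e-06).

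Ahnak, the large scaffold that binds S100a10 and annexin A2, rose from 19.19, 18.37 and 18.87 FPKM to 33.86, 34.44 and 33.31 FPKM (log2 difference 0.82, SE 0.03, limma adjusted p = 5.36e-06). Myh9 and Myh10, non-muscle myosin heavy chains of which Myh9 is bound by S100a4, and Cacybp, bound by S100a6, were singled out after their values were seen. Myh9 had a log2 difference of -0.02 (SE 0.03, limma adjusted p = 0.727), which turned to 0.009 without KO replicate 3, while Cacybp rose by 0.24 (SE 0.04, limma adjusted p = 0.00286). Myh10, another non-muscle myosin heavy chain, was at 6.474, 7.217 and 6.531 FPKM in WT and fell to 4.946, 4.851 and 4.744 FPKM in KO (log2 difference -0.40, SE 0.05, limma adjusted p = 0.00136).

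**Figure D4:**
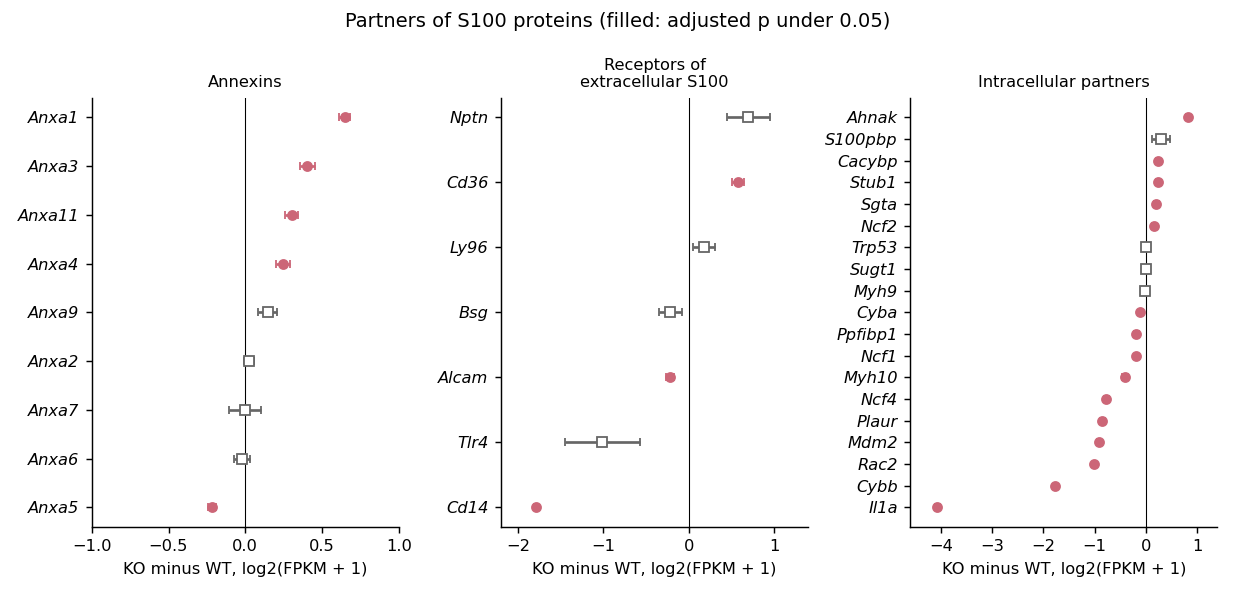
KO minus WT difference in log2(FPKM + 1) for the tested annexins, receptors and intracellular partners, with limma SE as whiskers and filled points for genes at an adjusted p under 0.05. Cd14, Cybb, Rac2 and Il1a lie left of 0 and Ahnak and Anxa1 right of it.

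Other EF-hand calcium-binding proteins served as a wider comparison. Of 58 genes of this kind, carried by 59 identifiers, 46 were tested, and 14 rose, 7 fell and 25 did not pass, with a median log2 difference of 0.04. On a TPM scale 14 rose and 11 fell. The number that fell was 3 without WT replicate 3, and 4 without WT replicate 1 or without KO replicate 3. Calm2, one of the calmodulin genes, rose from 81.55, 83.82 and 79.67 FPKM in WT to 127.22, 127.26 and 130.08 FPKM in KO (log2 difference 0.64, SE 0.03, limma adjusted p = 7.38e-06). Myl6, a light chain of non-muscle myosin, rose by 0.57 (SE 0.04, limma adjusted p = 0.000109). Myl12b, another, has 2 identifiers, of which ENSMUSG00000034868 rose by 0.44 (SE 0.03, limma adjusted p = 0.000101) while ENSMUSG00000117098, at 13.52 to 20.82 FPKM in WT and 15.26 to 20.78 FPKM in KO, had a difference of 0.02 (SE 0.18, limma adjusted p = 0.943), which turned to -0.16 without WT replicate 1. Ehd1, which reshapes recycling endosomes, fell by 1.32 (SE 0.04, limma adjusted p = 1.68e-06). The called share of this list, 21 of 46, was close to the 43.3% of all tested genes.

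The genes around the S100 genes on chromosome 3 were also compared. Of 15 other protein-coding genes that start within 200 kb of one of the 9 genes, 4 were tested. Of these, 2 were called, beside 43.3% called of all tested genes. Chtop, an mRNA export factor whose start lies 4.89 kb from the nearest of the 9 genes, fell from 34.61, 38.03 and 36.25 FPKM to 27.67, 25.71 and 26.98 FPKM (log2 difference -0.42, SE 0.04, limma adjusted p = 0.000541). Ints3, a subunit of the Integrator complex, rose by 0.11 (SE 0.04, limma adjusted p = 0.049), a call that was lost under most alternatives. Ilf2 had a difference of 0.03 (limma adjusted p = 0.527) and Snapin 0.08 (limma adjusted p = 0.873), and the sign of both turned under some alternatives.

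**Figure D5:**
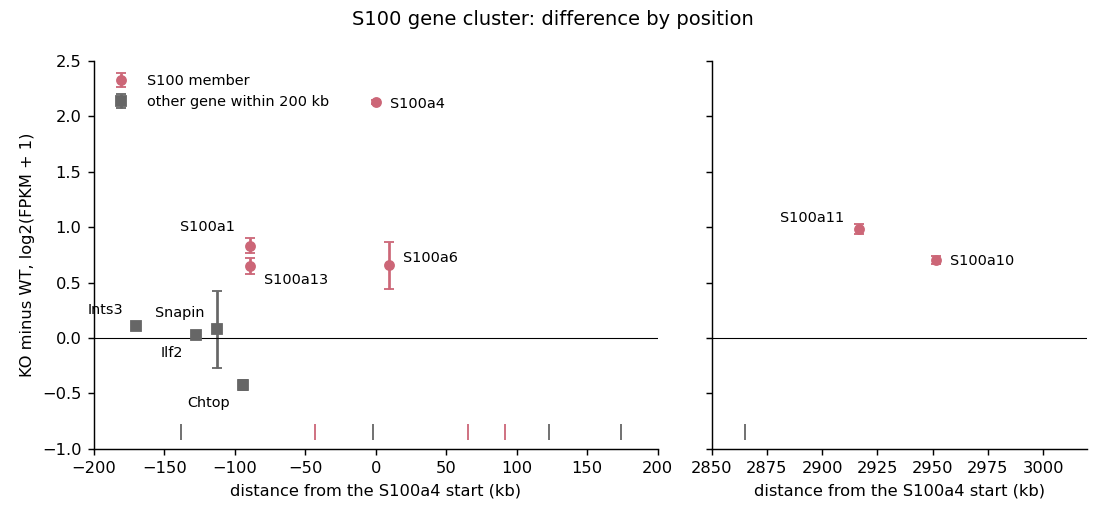
KO minus WT difference in log2(FPKM + 1) with limma SE against the distance of the gene start from that of S100a4 in kb, for the tested S100 genes and their tested neighbours, with ticks at the bottom for genes not tested. The 6 S100 genes lie at 0.65 or above and the 4 neighbours lie between -0.42 and 0.11. The S100 genes were chosen with this difference in view and the neighbours by position, so the gap between them is not a test.

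Lists of cell type transcripts were summed beside the S100 genes. A list of 37 neutrophil transcripts summed to 146 to 154 FPKM in WT and 24.7 to 28.3 FPKM in KO. Of these 37, 13 were at 0 in all libraries, 5 were tested and 4 of those fell, beside 18.8% of all tested genes. Most of the sum in WT was Lcn2, and without it the sums were 37.4 to 43.6 FPKM in WT and 24.4 to 28.1 FPKM in KO. A list of 25 microglia and macrophage transcripts summed to 1540 to 1607 FPKM in WT and 1715 to 1759 FPKM in KO, with 8 of 14 tested genes higher and 3 lower, beside 24.5% and 18.8% of all tested genes. The 18 astrocyte and oligodendrocyte transcripts summed to 15.3 to 16.5 FPKM in WT and 19.9 to 21.4 FPKM in KO, nearly all of it Aldoc and Cnp, which were both called higher in KO, while 9 of the 18 were at 0. The 11 fibroblast transcripts summed to 156 to 162 FPKM in WT and 154 to 159 FPKM in KO, nearly all Vim. The part of these shifts, and of the difference in mitochondrial share, in the S100 values was not tested.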

How the data were processed

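RNA was sequenced from 6 microglia samples, 3 for each neutrophil genotype. The authors deposited FPKM, fragment counts scaled to gene length and library depth, for 55335 Ensembl identifiers. Their processing notes name fastp 0.17.1, HISAT2 2.1.0, DESeq2 1.18.1 and R 3.4.3 without giving roles. Genome build, annotation and strandedness are not given in the sources used here, and the labels and the methods name different library kits and sequencers. Of the identifiers, 55154 matched GENCODE M21 and 181 did not. All value columns were assigned to a sample.

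The members and lists were chosen with earlier results of these data known. Values were taken as log2(FPKM + 1), genes averaging 1 FPKM or more were kept, and KO was compared with WT in limma 3.58.1 (R 4.3.3) with a mean-variance trend and Benjamini-Hochberg adjustment over 11395 genes. A gene was called at an adjusted p under 0.05. The log2(FPKM + 1) scale understates changes of low genes. The script was tested on simulated data. Within a tolerance of 0.05, only 24.2% to 25.4% of low values were whole fragments, beside 10% by chance, so reads were not recovered and no count test was run. Depth was estimated from the same steps, and limits of 3 fragments cover counting error only.

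Named genes were the 9 members, up to 4 tested genes of each list by smallest p, Cd177 and the 5 genes closest to S100a4. Anxa2, Tlr4, Ly96, Bsg, Myh9, Myh10 and Cacybp were added after their values were seen. Lists were the other S100 genes, annexins, receptors, intracellular partners, other EF-hand proteins, chromosomal neighbours and cell type markers, of which 1 is not reported here. Alternatives were a pseudocount of 0.1, no filter, a mean of at least 5 FPKM, a TPM scale, median centring, quantile normalization, no trend, a replicate block and leaving out each library. Deviations of same-numbered libraries correlated at -0.08, -0.05 and -0.01, so the numbers were not taken to pair the samples.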

Additional observations from a re-analysis of the deposited data

How the results depend on the processing

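All 6 expressed S100 genes stayed higher in KO under every alternative run, with log2 differences of 2.08 to 2.15 for S100a4, 0.94 to 1.01 for S100a11, 0.78 to 0.91 for S100a1, 0.66 to 0.73 for S100a10, 0.46 to 0.78 for S100a6 and 0.58 to 0.72 for S100a13. The median over the 6 genes was 0.74 to 0.84 when single libraries were left out. The TPM scale gave 2.08 for S100a4 and 0.66 for S100a10, and quantile normalization gave 2.15 for S100a4. Genes called over the whole table numbered 4930 in the reported fit, 3763 with a mean of at least 5 FPKM and 4081 to 4229 without single libraries. On the TPM scale 54.9% of the calls were lower in KO, against 43.4% in the reported fit. Called receptors were 3, and 3 to 5 without single libraries, the 5 without KO replicate 3, and 4 with no filter and with the replicate block, under which Bsg was called. Called neighbours were 2, but 1 with no filter, on the TPM scale, with quantile normalization, with no trend and with the replicate block, and 1 to 2 without single libraries, always by the loss of Ints3. Differences that turned were those of Ilf2 (-0.022) and Anxa2 (-0.023) on the TPM scale, of Anxa2 without WT replicate 1 (-0.004), with 0.043 as its highest value without single libraries, and of Snapin without WT replicate 2 (-0.178) and without KO replicate 2 (-0.242), with 0.322 as its highest. The Myl12b identifier ENSMUSG00000117098 turned on the TPM scale (-0.028), without WT replicate 1 (-0.16) and without KO replicate 2 (-0.086), with 0.134 as its highest, and Myh9 went to 0 without WT replicate 2 and 0.009 without KO replicate 3, with -0.037 as its lowest. None of these was called, and the cause was not tested. With the replicate number as a block, 4212 genes were called, of which 4026 were also called without it. The correlations of same-numbered libraries, -0.08, -0.05 and -0.01, gave no pairing, and of the list counts the block moved only that of the neighbours by over 1.5 times. S100a3, S100a8 and S100a9 were too low to be compared at this depth. The limit of 3 fragments depends on transcript length, at up to 0.27 FPKM for S100a13 and 0.574 FPKM for S100a4 in WT. No single FPKM limit therefore holds for all genes.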
